A study of Mus musculus with 2 samples.

Results

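The fatty acid binding proteins and the fatty acid transport proteins were examined as 10 named genes, 6 of the Fabp family (Fabp1, Fabp2, Fabp3, Fabp4, Fabp5 and Fabp7) and 4 of the Slc27a family (Slc27a1, Slc27a2, Slc27a4 and Slc27a5), among 37069 gene names on the arrays. All 10 had a probe, and 12 probes carried their RefSeq accessions. Messenger RNA levels had been measured in the prefrontal cortex (PFC) of male C57Bl/6 N sea mice on one-color Agilent arrays. Mice of the C group were untreated, and those of the CMS group had gone through 4 weeks of chronic mild stress (CMS), a schedule of unpredictable mild stressors used as a model of depression. Mice were 9 to 10 weeks old at the start, and the labels name no altered allele and no drug in either group. CMS mice were housed singly and C mice in groups, so stress and housing cannot be told apart. Each group was 1 pool of RNA on 1 array of the same slide, with 7 mice per pool by the design text of the series and 10 mice per group by the study's methods. There was no replicate, so no spread between mice could be set against a difference and the groups were compared without a test. Below, C and CMS stand for these pools.

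Fatty acids are poorly soluble in water and are carried inside cells by small binding proteins, each a barrel that holds its ligand in an internal cavity. The Fabp genes are known for their tissue patterns. Fabp1 is the abundant form of hepatocytes and enterocytes, Fabp2 that of enterocytes, Fabp4 that of adipocytes and macrophages, while Fabp3, Fabp5 and Fabp7 are the forms of the brain, with Fabp3 and Fabp5 in neurons and other cells and Fabp7 in astrocytes and radial glia. The Slc27a genes encode membrane proteins that promote uptake of long-chain fatty acids and join them to coenzyme A. Slc27a1 and Slc27a4 are used by many tissues, Slc27a2 by liver and kidney, and Slc27a5 by liver, where it activates bile acids before they are conjugated.

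Signals below are the scanner software's background-subtracted intensities, scaled here to a mean of 2500 per array, and the error after each is the software's own estimate for the spot, not a spread between mice. A gene was called changed where the CMS signal was more than 2-fold higher or less than 0.5 times that of the C group, the limits used in the study. All 10 genes were well above background on both arrays, so none of their ratios is a bound. Of the 10 genes, 5 were called higher in CMS and 0 were called lower. Of all 27119 gene names with a ratio, 1.99% were called higher, 0.59% lower and 2.58% in either direction. Among the 25433 names well above background on both arrays, as all 10 genes were, these shares were 1.16%, 0.173% and 1.33%. The 5 genes were Fabp1, Slc27a5, Fabp4, Fabp2 and Slc27a2, in the order of their log2 ratios. The other 5 genes, Fabp7, Fabp3, Slc27a4, Fabp5 and Slc27a1, lay between -0.09 and 0.30. The median log2 ratio of the 10 genes was 0.68, against -0.03 over all gene names, and it lay in the gap between these groups of genes, where no member was found. Without scaling of the arrays all ratios were lower, with a median of -0.20 over all gene names, so the sign of a ratio near 0 depends on the scaling. In bulk tissue, a higher signal from more cells of a type and from more RNA per cell cannot be told apart. Fabp1, Fabp2 and Slc27a2 are among the genes that the study itself took from these arrays, so their ratios describe the arrays and are not independent evidence.

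**Figure D1:**
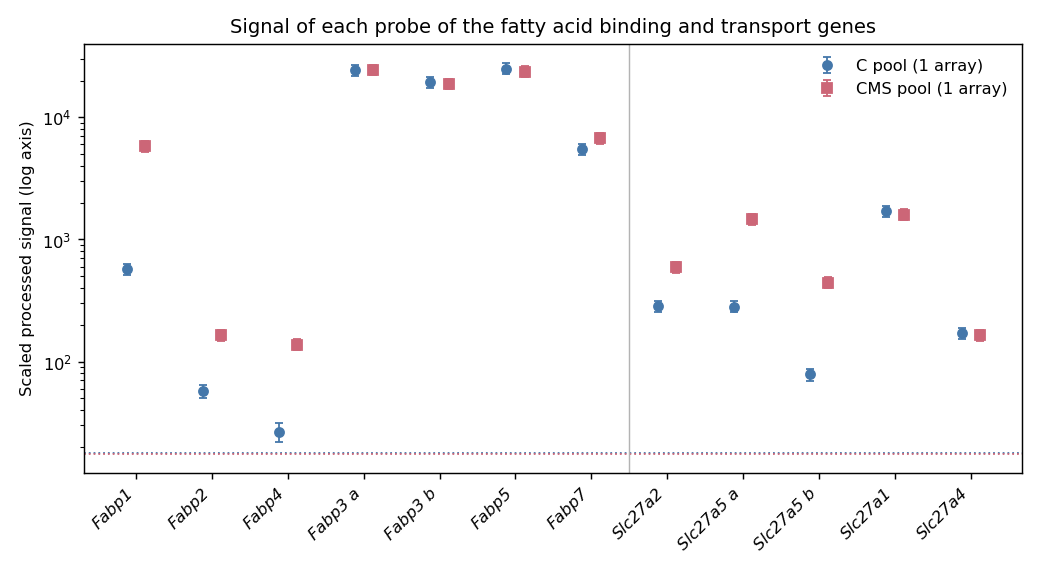
Scaled processed signal (log axis) of the 12 probes of the 10 genes in the C pool (blue circles) and the CMS pool (red squares), 1 array each, with bars for the error given by the scanner software and dotted lines at the lowest signal well above background, 17.8 for C and 17.6 for CMS. A second probe of a gene is marked b. The pools are apart for Fabp1, Fabp2, Fabp4, Slc27a2 and both Slc27a5 probes, and nearly coincide for Fabp3, Fabp5, Slc27a1 and Slc27a4.

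The bases before the transcription start are shown for 5 of the genes, because they set the members that were more than 2-fold higher (Fabp1, Fabp2 and Slc27a2) beside brain forms that were not (Fabp3 and Fabp7). RefSeq promoter sequences (build GRCm38.p6) were matched for 7 of the 10 genes, with several starts for Slc27a1. Fabp4, Fabp5 and Slc27a5 were not matched. Each line gives the 250 bases before the annotated start, 5′ to 3′ on the gene's strand. Capitals mark matches on either strand to any of 5 motifs, none of which overlapped. TATAAA is the core promoter box bound by the general transcription machinery. AGGTCA is a half-site of nuclear receptors, among them the Ppar and Rxr proteins. GTTAAT is a half-site of Hnf1 proteins. GGGCGG is the box bound by Sp proteins. CAAAGTCCA is a core preferred by Hnf4a.
Fabp1 (chr6:71199629-71199878, plus strand): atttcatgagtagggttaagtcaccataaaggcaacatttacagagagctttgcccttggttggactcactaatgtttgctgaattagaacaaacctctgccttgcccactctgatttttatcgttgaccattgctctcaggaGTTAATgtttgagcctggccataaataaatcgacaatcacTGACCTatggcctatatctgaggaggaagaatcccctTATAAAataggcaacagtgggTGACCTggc
Fabp2 (chr3:122894822-122895071, plus strand): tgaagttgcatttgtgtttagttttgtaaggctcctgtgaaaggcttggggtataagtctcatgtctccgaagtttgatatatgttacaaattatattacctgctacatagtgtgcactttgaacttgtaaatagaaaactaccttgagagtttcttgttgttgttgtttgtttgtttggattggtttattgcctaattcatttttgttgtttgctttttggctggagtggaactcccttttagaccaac
Slc27a2 (chr2:126552774-126553023, plus strand): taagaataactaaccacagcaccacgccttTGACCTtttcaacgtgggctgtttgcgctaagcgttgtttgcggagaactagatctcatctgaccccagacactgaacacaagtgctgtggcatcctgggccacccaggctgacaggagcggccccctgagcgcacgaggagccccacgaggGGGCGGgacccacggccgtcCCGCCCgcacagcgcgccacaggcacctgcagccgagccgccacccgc
Fabp3 (chr4:130308488-130308737, plus strand): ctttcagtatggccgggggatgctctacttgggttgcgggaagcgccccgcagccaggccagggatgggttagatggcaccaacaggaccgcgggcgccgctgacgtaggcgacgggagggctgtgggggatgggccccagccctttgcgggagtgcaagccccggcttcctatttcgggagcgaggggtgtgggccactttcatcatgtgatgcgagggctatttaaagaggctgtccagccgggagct
Fabp7 (chr10:57784673-57784922, plus strand): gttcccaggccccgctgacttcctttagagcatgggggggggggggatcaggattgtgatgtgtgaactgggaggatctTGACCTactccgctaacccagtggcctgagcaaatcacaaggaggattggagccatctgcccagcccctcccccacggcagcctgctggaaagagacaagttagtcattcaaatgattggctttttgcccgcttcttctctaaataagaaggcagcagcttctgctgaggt

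Of the sequences shown, the Fabp1 window alone held TATAAA, which began 30 bases before the start and which 12.4% of all 32851 promoter windows of this length held. The Fabp1 window also held AGGTCA in reverse at 67 and 9 bases before the start, and GTTAAT at 107 bases. AGGTCA was found in 14.02% of all windows and GTTAAT in 6.43%. Slc27a2 held AGGTCA in reverse at 220 bases and Fabp7 held it in reverse at 171 bases, and their log2 ratios were 1.06 and 0.30. What any of these matches does was not tested. GGGCGG was in the Slc27a2 window at 68 bases and in reverse at 48 bases, and 32.74% of all windows held it. It was also in windows, not shown, of Slc27a1 and Slc27a4, which were not called. Fabp2 and Fabp3 held none of the motifs. CAAAGTCCA, which 0.383% of all windows held, was in none of the members' windows, which says only that these letters are not in them. The windows also differed in CpG pairs, which were 2 for Fabp1, 1 for Fabp2, 19 for Slc27a2, 17 for Fabp3 and 4 for Fabp7, against a median of 6 over all windows. Among the 3 windows shown of genes more than 2-fold higher, that of Slc27a2 lay above the upper quartile of all windows, 16, and those of Fabp1 and Fabp2 lay below the median.

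Fabp1, the liver form, showed the widest difference of the family. Its probe (NM_017399) gave a signal of 573.6 ± 57.5 in C and 5801 ± 580.1 in CMS. The log2 ratio was 3.34 ± 0.20, or 10.1-fold. In C the signal was already 32.2 times the faintest one well above background, so C was not blank for this transcript. Only 45 of the gene names with a ratio lay above Fabp1. Hepatocyte markers were higher beside it, with 19 of 20 past 2-fold and a median log2 ratio of 3.05, and their part in the result was not tested.

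Fabp2, the intestinal form, was measured at 57.3 ± 7.15 in C and 164 ± 16.9 in CMS by its probe (NM_007980). The log2 ratio was 1.51 ± 0.23, a fold change of 2.86. This probe was dim, at 3.22 times the faintest signal well above background in C. With another background correction (normexp with an offset of 50, then quantile normalization) the log2 ratio was 0.92, below the 2-fold limit. The offset adds 50 to every spot, which by construction draws the ratios of dim spots toward 0, here and wherever this correction is named below.

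Fabp4, the adipocyte and macrophage form, went from 26.6 ± 4.70 in C to 138 ± 14.3 in CMS (NM_024406). The log2 ratio was 2.37 ± 0.30, a fold change of 5.17. In C this was the member nearest to background, at 1.49 times the faintest signal well above it, and under the same other background correction the log2 ratio was 1.17. Fabp4 thus stayed past the 2-fold limit, with a smaller size under that correction and its offset.

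The forms known from brain were far above background in both pools, by 308 to 1412 times the faintest signal above it in C, and differed little. For Fabp3, the heart-type form that neurons also use, the brighter of its probes (NM_010174) gave 24283 ± 2428 in C and 24579 ± 2458 in CMS, a log2 ratio of 0.02 ± 0.20. The other Fabp3 probe gave 19320 and 18875, a log2 ratio of -0.03. The sign of the Fabp3 ratio therefore depended on the probe, and also on the scaling, with -0.16 when arrays were not scaled. Fabp5, the epidermal-type form, gave 25133 ± 2513 in C and 23748 ± 2375 in CMS (NM_010634), a log2 ratio of -0.08 ± 0.20. Fabp7, the brain-type form of astrocytes and radial glia, gave 5489 ± 549 in C and 6736 ± 674 in CMS (NM_021272). Its log2 ratio of 0.30 ± 0.20 was the highest of the brain forms and 8.41% of gene names lay above it, but at a fold change of 1.23 it stayed well inside the 2-fold limits, and without scaling it was 0.12. Astrocyte markers fixed for comparison did not move in the same direction as a group. All 8 were well above background, their log2 ratios ran from -0.30 for Gfap to 0.06 for S100b, and their median was -0.03.

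Among the transport proteins, Slc27a5, the bile acid and very long-chain acyl-CoA synthetase of liver, had a pair of probes that gave like results. The brighter probe (NM_009512) went from 281.9 ± 28.5 in C to 1465 ± 147 in CMS, a log2 ratio of 2.38 ± 0.21. The dimmer probe went from 78.6 ± 8.87 to 443 ± 44.5, a log2 ratio of 2.50 ± 0.22. The pools did not overlap within the software's error for either probe, which was also so for Fabp7 at a fold change of 1.23. The ratios of the Slc27a5 probes lay within each other's error. For comparison, repeated spots of 1 probe differed in log2 ratio with an SD of 0.13 (342 probes), which covers error within an array only.

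Slc27a2, the very long-chain acyl-CoA synthetase of liver and kidney, gave 282.6 ± 28.5 in C and 590.1 ± 59.1 in CMS (NM_011978). The log2 ratio was 1.06 ± 0.21 (2.09-fold), so its call on the arrays rests on a value within the software's error of the 2-fold limit. It was 0.89 without scaling and 0.98 under the other background correction. Its ratio was the smallest of the 5 genes called higher. Slc27a2 was also measured by quantitative PCR in the study, which lists a fold change past the 2-fold limit in the same direction. The study's methods name 10 mice per group for arrays and PCR together, so the PCR may have used the same mice. That PCR result was not re-examined here.

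Slc27a1, the transporter of muscle, fat and brain, gave 1697 ± 170 in C and 1599 ± 160.0 in CMS (NM_011977), a log2 ratio of -0.09 ± 0.20. Slc27a4, which skin, gut and brain use, gave 170 ± 17.4 and 163 ± 16.7 (NM_011989), a log2 ratio of -0.05 ± 0.21. Both ratios were smaller than the software's error, and both were below 0 under every alternative tried.

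**Figure D2:**
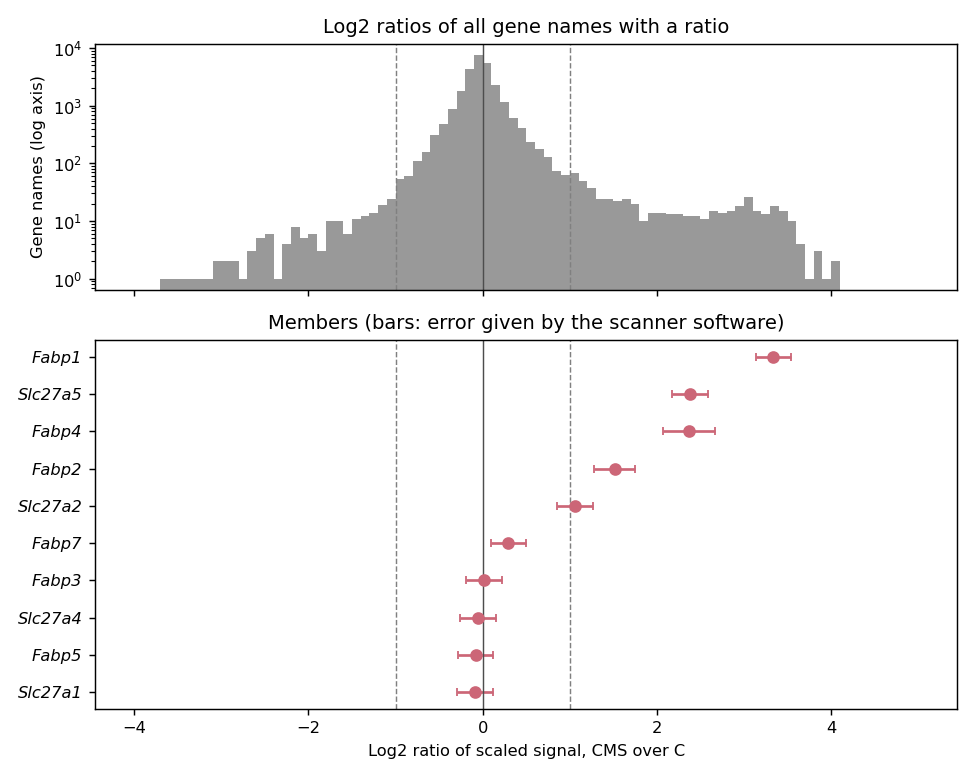
Top, number of gene names (log axis) by log2 ratio of scaled signal, CMS over C, over the 27119 names with a ratio. Bottom, the log2 ratio of the 10 genes on the same axis, by the brightest probe of each gene, with bars for the error given by the scanner software and dashed lines at 2-fold. Fabp1 at 3.34 stands farthest out, Slc27a2 at 1.06 sits on the 2-fold line, and Fabp3, Slc27a4, Fabp5 and Slc27a1 sit at 0 within their bars.

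The position of the spots on the array was compared for all 12 probes. Spots within 10 rows and 10 columns of a member's spot, well above background on both arrays, had a median log2 ratio between -0.06 and -0.0017 (207 to 281 spots each), and between 0.37% and 2.42% of them were more than 2-fold higher. None of the 12 spots was marked as an outlier. Gapdh, Actb and Ppib, used as reference transcripts, had log2 ratios of 0.04, -0.02 and -0.08.

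The other genes of the families did not add to the differences. Of 8 further intracellular lipid binding proteins (Fabp6, Fabp9, Fabp12, Pmp2 and the retinoid carriers Crabp1, Crabp2, Rbp2 and Rbp7), 3 were above background, none passed 2-fold, and their median log2 ratio was -0.04. Crabp1, a carrier of retinoic acid, was the farthest from 0, with signals of 36.3 and 24.6 and a log2 ratio of -0.56. In the gene table, Fabp4 lies on chromosome 3 in a stretch that also holds Fabp5, Pmp2, Fabp9 and Fabp12. Of these, Pmp2, Fabp9 and Fabp12 were not well above background in either pool, Fabp5 was at -0.08, and Fabp4 was at 2.37. Of the remaining transport proteins, Slc27a3 gave 608 in C and 517 in CMS, a log2 ratio of -0.23, and Slc27a6 was not well above background in either pool.

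Genes for fatty acid uptake, release from lipid stores and intracellular carriage stayed within the 2-fold limits. Of 13 listed, 9 were above background, with log2 ratios from -0.15 for Mfsd2a, the carrier of docosahexaenoic acid at the blood-brain barrier, to 0.19 for Scp2, a peroxisomal sterol and lipid carrier, and none passed 2-fold. The median was -0.07. Lpl, which frees fatty acids from lipoproteins, was at 0.06, and Dbi, which binds acyl-CoA, at -0.10. Cd36, a fatty acid receptor of fat, muscle and macrophages, was not well above background in either pool, and neither was Lipc, the lipase of liver.

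The enzymes that join fatty acids to coenzyme A, or free them, fell into separate sets. Of 13 listed, all had a ratio, 4 were more than 2-fold higher and none lower, and the median was 0.05. The long-chain synthetases Acsl1, Acsl3, Acsl4, Acsl5 and Acsl6 and the brain enzyme Acsbg1 lay between -0.11 and 0.06. The medium-chain synthetase Acsm1, known from liver and kidney, went from a signal of 50.3 to 191, a log2 ratio of 1.92. The other Acsm1 probe was not well above background in either pool and had no ratio. Acsm3, Acsm5 and Acot12, enzymes known from liver and kidney, were dim in C and were at least 2.18-fold, 2.26-fold and 2.70-fold higher in the CMS pool. The other Acsm3 probe gave a bound of 0.52 on the log2 scale, which leaves the 2-fold limit undecided for that probe. Under the other background correction Acsm1 alone of the 4 stayed past 2-fold, at 1.26, with Acot12 at 0.60, Acsm3 at 0.51 and Acsm5 at 0.51, and where both arrays had to be well above background it was the only one of the 4 with a ratio.

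Slc27a5 acts on bile acids, and of 9 genes of bile acid synthesis and conjugation 5 had a ratio, of which 2 were more than 2-fold higher and none lower, with a median log2 ratio of 0.45. Acox2, the oxidase that shortens the side chain of bile acid precursors, went from 32.6 to 222, a log2 ratio of 2.76. Cyp27a1, which hydroxylates the sterol side chain, was at least 2.05-fold higher, and this call was lost without scaling, under quantile normalization and under the other background correction. Cyp7a1, the rate-limiting enzyme of bile acid synthesis, and Cyp8b1, Baat, which conjugates bile acids after Slc27a5, and Akr1d1 were not well above background in either pool.

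Fatty acids are ligands of the Ppar receptors, which act on Fabp and Slc27a genes with Rxr partners. Ppara, Ppard and Pparg had signals of 1033, 1046 and 816 in C and 1012, 1004 and 805 in CMS, and log2 ratios of -0.03, -0.06 and -0.02. Rxra, Rxrb and Rxrg were at 0.14, -0.13 and -0.19. Of the 13 nuclear receptors and partners listed, 12 had a ratio and 2 were more than 2-fold higher. These were Hnf4a, known from liver, kidney and gut, at 3.55, and Nr1h4, the bile acid receptor, which was at least 3.31-fold higher. Under the other background correction Hnf4a was at 2.52 and Nr1h4 at 0.62, so the Nr1h4 call was lost. The median over the list was -0.02.

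**Figure D3:**
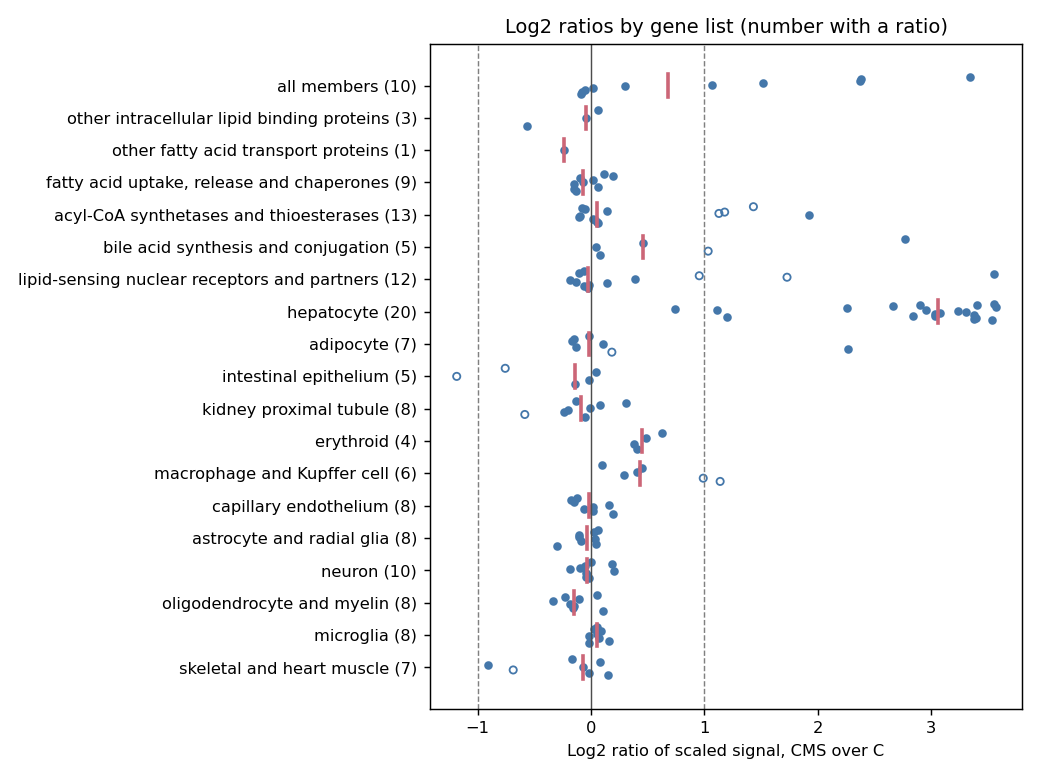
Log2 ratios of scaled signal, CMS over C, of the 10 genes and of each list of genes, with the number of genes that had a ratio in brackets. Filled points are genes well above background on both arrays, open points are bounds, red bars are medians and dashed lines mark 2-fold. The hepatocyte markers lie mostly between 2 and 4 with a median of 3.05, and the medians of the other marker lists lie between -0.15 and 0.45.

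Markers of other cell types were compared beside the genes that were higher. Of 20 hepatocyte markers, all were well above background in both pools and 19 were more than 2-fold higher, with log2 ratios from 0.74 for Tat to 3.57 for Pck1, a median of 3.05, and a summed signal of 21997 in C and 124112 in CMS. Several of these markers were also picked by the study from the same arrays, and Hnf4a is in the receptor list above as well. Fabp1 at 3.34, Slc27a5 at 2.38, Fabp4 at 2.37, Fabp2 at 1.51 and Slc27a2 at 1.06 lay inside that range, but only Fabp1 lay above the median. Slc27a2 lay below all of these markers but Tat, and Fabp2 below all but Tat, Fga at 1.11 and Apoa2 at 1.20. This order is by the brightest probe of each marker. By the dimmest probe with a ratio, Apoa2 was at 3.10 and Fga at 2.77, above Fabp2. By that choice Cyp3a11 was at 1.33, below Fabp2. The part of the hepatocyte markers in the ratios of the 5 genes called higher was not tested. Of 11 intestinal epithelium markers, 10 were on the arrays, 5 had a ratio, none was more than 2-fold higher, and the median was -0.14, with a summed signal of 778 in C and 737 in CMS. Sis, the sucrase of enterocytes, was more than 2-fold lower as a bound, but at -0.43 under the other background correction, and Cdx1, Cdx2, Alpi, Slc5a1 and Cdh17 were not well above background in either pool. Of 10 kidney proximal tubule markers, 8 had a ratio, none passed 2-fold, the median was -0.09 and the summed signal was 2136 in C and 1964 in CMS.

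For Fabp4, markers of adipocytes and of macrophages were compared. Of 10 adipocyte markers, 7 had a ratio, 1 was more than 2-fold higher, the median was -0.02, and the summed signal was 1444 in C and 1476 in CMS. The exception was Cfd, the complement factor also called adipsin, with 20.0 in the C pool, 96.3 in the CMS pool and a log2 ratio of 2.27. Under the other background correction Cfd was at 0.89, below the 2-fold limit, where Fabp4 was at 1.17. Adipoq, Lep and Cidec, which define adipocytes, were not well above background in either pool, and Plin1 was at least 1.14-fold higher. Lipe and Pparg of this list stand in the lists above too. Of 8 markers of macrophages and Kupffer cells, 6 had a ratio and 1 was more than 2-fold higher. Their median was 0.43 and their summed signal 651 in C and 821 in CMS. Clec4f, of Kupffer cells, was at least 2.20-fold higher, and Vsig4, also of Kupffer cells, at least 1.98-fold. Neither passed 2-fold without scaling, at 0.96 and 0.82, or under the other background correction, at 0.34 and 0.42. Both passed it under 5 other settings, such as scaling to the 75th percentile. Clec4f passed it in further settings where Vsig4 did not, such as scaling to the median, at 1.11, and quantile normalization, at 1.10. Timd4 and Cd163 were not well above background in either pool. Of 8 erythroid markers, 6 were on the arrays and 4 had a ratio. All 4 were above 0, from 0.38 to 0.62, and none passed 2-fold. Their median was 0.45, with a summed signal of 36065 in C and 47452 in CMS. The part of any of these in the ratio of Fabp4 was not tested.

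Markers of brain cell types stayed within the 2-fold limits. All 10 neuron markers, 8 astrocyte markers, 8 markers of oligodendrocytes and myelin, 8 of microglia and 8 of capillary endothelium were well above background on both arrays and none passed 2-fold. The medians were -0.04 for neurons, -0.15 for oligodendrocytes, 0.05 for microglia and -0.02 for endothelium. Of 9 muscle markers, 7 had a ratio, none passed 2-fold, and the median was -0.07, though without scaling Myh6 was at -1.08. Fabp3, Fabp5, Slc27a1 and Slc27a4, at -0.09 to 0.02, lay within the range of these medians, and Fabp7, at 0.30, lay above it and above the highest of these brain markers, Slc17a7 at 0.20.

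**Figure D4:**
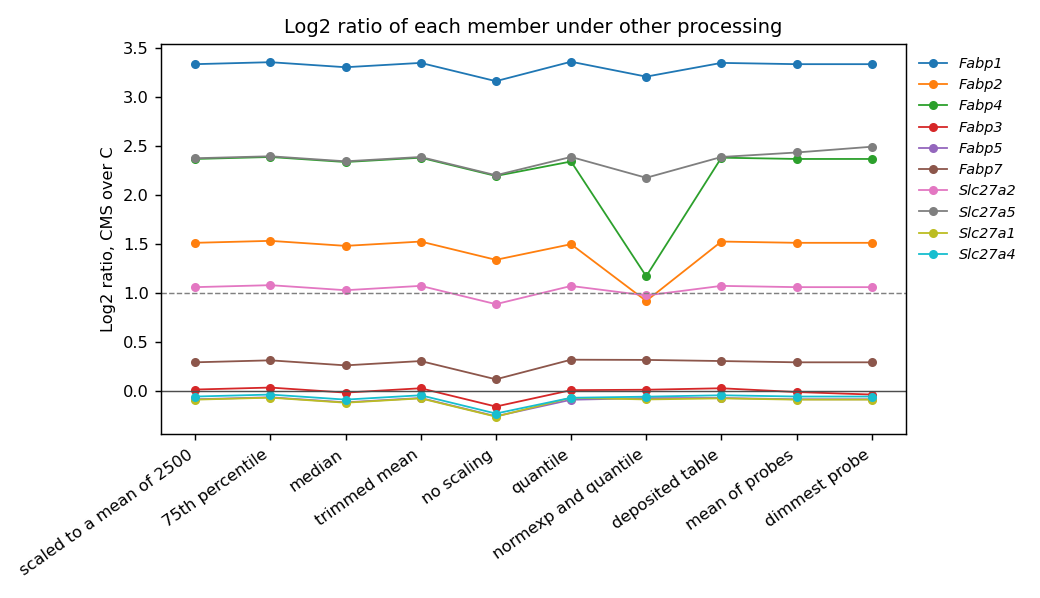
Log2 ratio of the 10 genes, CMS over C, as processed for the text (left) and under other scalings, another background correction, the deposited table and other choices of probe, with a dashed line at 2-fold. Keeping dim probes or outlier spots and other filters, not drawn, gave the same values for these genes. Fabp1, Fabp4 and Slc27a5 stayed above 2-fold, and Fabp4 moved most, to 1.17 under normexp and quantile normalization.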

How the data were processed

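The arrays (Agilent SurePrint G3 Mouse GE 8x60K) were scanned and read by the authors with Agilent Feature Extraction 10.10.1.1, and per the file headers the deposited intensity of each spot is linear, with background and spatial trend removed but no scaling across arrays. A table the authors added holds these intensities times 1 factor per array. Here, 59305 spots that are not controls were read, and outlier spots among them (130 in C, 133 in CMS) were left out. Spots of 1 probe were averaged, and the mean over 55674 probes was set to 2500 on either array. No spot was saturated, and 65.2% and 65.9% of spots were well above background. Where 1 array was not well above background, a probe took the higher of its signal and the lowest signal well above background, which makes its ratio a bound. Probes dim on both arrays got no ratio. The brightest probe stood for a gene. RefSeq accessions, without versions, were named with RefSeq's gene table (GRCm38.p6), which named 30740 spots, and other spots kept the array's accession as their name. Probe sequences and protein sequences were not used here.

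With 1 array per group no test was made, and precision is limited by the number of arrays. The errors printed are the scanner software's spot errors, carried into the log2 ratio as relative errors added in quadrature. Genes named are the 10 members, the genes of the fixed lists and reference transcripts, except 1 listed gene that is not reported here. The members and lists were chosen with earlier results of these data known. Alternatives were other scalings, normexp with quantile normalization on the median spot intensities, the deposited table, other filters and other choices of probe. Python 3.11.15, numpy 2.4.6, pandas 2.3.3, R 4.3.3 and limma 3.58.1 were used.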

Additional observations from a re-analysis of the deposited data

How the results depend on the processing

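No paired analysis was possible because each group has 1 array, and for the same reason no array could be left out. Of 130 values of the 10 genes under 13 alternatives, 117 moved by less than the SD between spots of 1 probe. The other 13 moved by more (10 without scaling, 3 under normexp), and no called gene changed sign. Much of that count was fixed in advance. All 10 genes were well above background on both arrays without outlier spots, so filter, bound and outlier settings hardly touch them. The choice of probe could move only Fabp3 and Slc27a5. Without scaling every log2 ratio shifts by the same amount, which exceeded that SD. Fabp1, Fabp4 and Slc27a5 were more than 2-fold higher under all 13 alternatives, Fabp2 under 12 and Slc27a2 under 11. The count of members more than 2-fold higher, 5, was 3 under normexp with quantile normalization. The median of the members, 0.68, was 0.51 without scaling, which lowers the median of all gene names from -0.03 to -0.20, and 0.62 under normexp. Over all gene names, 699 calls became 303 under normexp, 1090 with no bound, 338 where both arrays had to be well above background and 2562 without a filter. The share of calls that were higher was 77.1%, and 62.9% without scaling, 87.5% under normexp and 58.3% with no filter. The filter settings change the number of probes compared, by construction. For the other settings the cause was not tested. Signal over background limits Fabp4 and Fabp2 most. Over all probes the median lay at 3.64 (C) and 3.76 (CMS) times the faintest signal above background.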
